A study of Mus musculus with 4 samples.

Results

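The genes described here are 10 components of cytokine signalling in mouse regulatory T cells: the receptor chain genes Il7r, Il4ra, Il21r, Il6ra, Il6st, Il27ra and Il10ra, the Janus kinase gene Jak2 and the transcription factor genes Stat3 and Stat6. They were taken by name from the deposited table of read counts, which holds all 10 among its 20837 genes, and all 10 passed the filter on low counts. The study sequenced RNA of Treg cells (CD4 T cells that express Foxp3 and restrain immune responses) sorted from spleen. There were 2 libraries from Foxp3YFP-CreKmt2dfl/fl mice (cKO) and 2 from Foxp3YFP-CreKmt2d+/+ mice (WT). Both genotypes thus carry the Foxp3-driven YFP-Cre allele, and cKO mice in addition carry loxP-flanked alleles of Kmt2d, which encodes a histone H3 lysine 4 methyltransferase. The design directs deletion to cells that have expressed Foxp3, and in which cells it took place was not tested. It is not stated whether a library comes from 1 mouse or from pooled mice. The age of the mice is not given in a usable form, because the protocol text in the labels describes macrophages cultured from bone marrow of another knockout, and the groups here follow the tissue, cell type and genotype fields. No label ties a library to an animal of its own. The p-values therefore describe how far these libraries spread, and that spread may be technical.

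Cytokine receptors of this kind have no kinase of their own. Binding of the cytokine brings receptor chains together, the Janus kinases (JAK) bound to them phosphorylate the receptor, and STAT proteins dock there, are phosphorylated in turn, and enter the nucleus to switch genes on. The interleukin 6, 21, 27 and 10 receptors signal largely through STAT3, the interleukin 4 receptor through STAT6 and the interleukin 7 receptor through STAT5. In mouse T cells interleukin 6 opposes the induction of Foxp3 and favours the type 17 programme, STAT3 within Treg cells is needed to restrain type 17 responses, and a low level of the interleukin 7 receptor is a usual mark of Treg cells.

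Total counts were 28442416 and 34225385 in the cKO libraries and 35560491 and 30737750 in the WT libraries. The 10 genes had between 2682 and 15030 reads each in a library. Levels are given as CPM (read counts relative to library size, with TMM scaling), and group means with the SD over 2 libraries. Foxp3 measured 170 and 180 CPM in cKO and 278 and 250 CPM in WT. Kmt2d measured 836 and 793 CPM in cKO and 721 and 704 CPM in WT. This is a count over the whole gene, which can include exons outside the deleted part, and so it does not check the labels. Summed levels of markers of other cells were higher in both cKO libraries for 9 neutrophil genes (477 to 1042 CPM in cKO, 61.9 to 154 CPM in WT) and 6 basophil genes (19.4 to 33.9 CPM in cKO, 1.56 to 3.61 CPM in WT). The same held for 7 B cell genes (149 to 250 CPM in cKO, 109 to 134 CPM in WT), 7 CD8 T and NK cell genes (148 to 161 CPM in cKO, 101 to 117 CPM in WT) and 6 dendritic cell genes (127 to 141 CPM in cKO, 72.6 to 78.4 CPM in WT). The 8 macrophage and monocyte genes summed to 741 to 862 CPM in cKO and 478 to 610 CPM in WT, but without Lyz2, which neutrophils also express, the sums of the other 7 overlapped (197 to 278 CPM in cKO, 217 to 324 CPM in WT), and 5 of these 7 had negative log2 fold changes. The sums of 5 red cell and platelet genes overlapped (110 to 288 CPM in cKO, 140 to 377 CPM in WT). General T cell markers were lower, with 12 genes summing to 4781 to 5170 CPM in cKO and 5928 to 6169 CPM in WT. Single genes passed the test upwards for 9 of 9 neutrophil, 6 of 6 basophil, 6 of 7 CD8 T and NK cell, 4 of 6 dendritic, 2 of 7 B cell and 1 of 8 macrophage and monocyte markers (Lyz2). No marker gene on these lists was at 0 in all libraries. Since these are bulk samples, fewer cells of a type and less RNA per cell cannot be told apart.

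Among the 10 genes, 4 were lower in cKO Treg cells, 0 were higher and 6 did not pass the test (edgeR quasi-likelihood test, Benjamini-Hochberg adjusted p under 0.05 over all 13861 genes tested). DESeq2 also called 0 higher, as did edgeR at an unadjusted p under 0.05. Across all genes tested, 31.6% passed this test, 16.5% upwards and 15.1% downwards. The 4 genes that fell are the receptor chain genes Il6ra and Il21r, 1.61-fold and 1.49-fold lower, and Stat3 and Jak2, 1.19-fold and 1.15-fold lower. None of the 10 changed 2-fold, while 8.11% of the genes tested both passed the test and changed at least 2-fold. The log2 fold change was negative for 9 of the 10, with a median of -0.15, beside 0.0003 for all genes tested. In 8 of the 10 the groups did not overlap, each time with cKO below WT. Over all genes tested the share without overlap was 66.0%, counting both directions, and the share with cKO below alone was not counted.

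**Figure D1:**
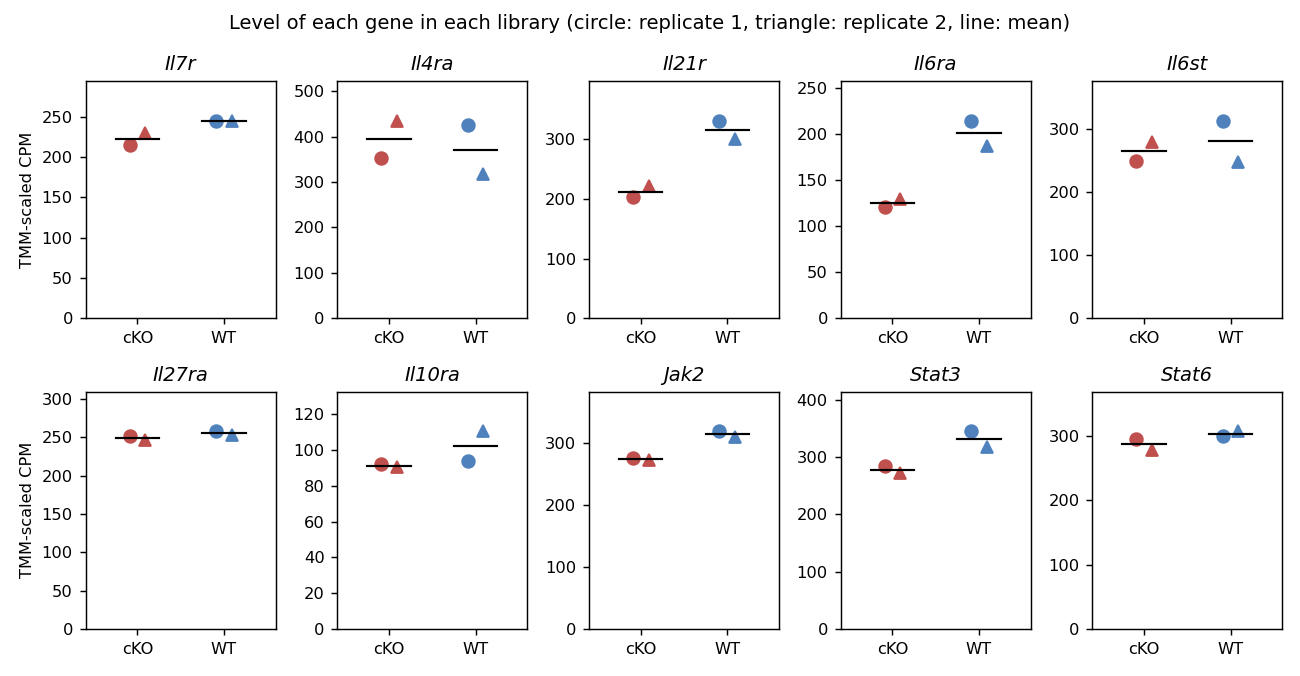
Level of each of the 10 genes in each library, in TMM-scaled CPM from 0 upwards, with cKO on the left and WT on the right of each panel. Circles are replicate 1, triangles replicate 2, and lines group means. Il21r and Il6ra show the widest gap between the groups, while the libraries of both groups interleave for Il4ra and Il6st.

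Il6ra encodes the alpha chain that binds interleukin 6. The gene (gene number 16194) lies on mm10 chromosome 3 from 89869324 to 89913196. It measured 121 and 130 CPM in the cKO libraries and 215 and 187 CPM in the WT libraries. The cKO libraries were the 2 lowest, and the gap between the groups was wider than the spread within either. The means were 125 ± 6.14 CPM in cKO and 201 ± 19.7 CPM in WT, a log2 fold change of -0.68 (SE 0.08, edgeR adjusted p = 0.00512). Of all genes tested, 16.8% had a larger change in either direction. Neutrophils, monocytes and macrophages also express Il6ra. The summed neutrophil markers were higher in the cKO libraries, where Il6ra was lower, and the sums of the macrophage and monocyte markers other than Lyz2 overlapped. The part of those cells in the Il6ra counts of either group was not tested.

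Its partner Il6st encodes gp130, the signalling chain that the receptors for interleukin 6, interleukin 27 and LIF share. This gene (gene number 16195, chromosome 13, 112464070 to 112506860) measured 249 and 280 CPM in cKO and 313 and 248 CPM in WT. The groups overlapped, because WT 2 was as low as cKO 1. The log2 fold change was -0.08 with a 95% interval of -0.38 to 0.21 (edgeR adjusted p = 0.683), an interval too wide to show that the gene did not change, and the sign turned to 0.10 without WT 1. For every read of Il6st there were 0.485 and 0.463 reads of Il6ra in the cKO libraries and 0.686 and 0.756 in the WT libraries. The ratio of alpha chain to gp130 transcripts was thus lower in both cKO libraries, a difference that was not tested.

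Il21r encodes the receptor for interleukin 21, which pairs with the common gamma chain. It lies on chromosome 7 (gene number 60504, 125603252 to 125634397). It measured 203 and 222 CPM in the cKO libraries and 331 and 300 CPM in the WT libraries. Again both cKO libraries were below both WT libraries by more than the spread within a group. The means were 212 ± 13.2 CPM in cKO and 316 ± 22.1 CPM in WT, a log2 fold change of -0.57 (SE 0.07, edgeR adjusted p = 0.00543). The falls of Il6ra and Il21r held in each of 12 other settings of scaling, test, filter, depth, pairing and left-out library, with log2 fold changes between -0.78 and -0.58 for Il6ra and between -0.64 and -0.50 for Il21r.

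Upstream of Il21r on the same strand lies Il4ra, which ends 23.8 kb before Il21r starts. It encodes the alpha chain for interleukin 4 and interleukin 13 (gene number 16190, 125552271 to 125579474). Il4ra measured 352 and 435 CPM in cKO and 425 and 317 CPM in WT. The libraries overlapped fully, with 1 library of each group high and 1 low. The log2 fold change was 0.09 with a 95% interval of -0.31 to 0.48 (edgeR adjusted p = 0.760), the widest of the 10. Its sign turned, to -0.08 without cKO 2 and to -0.11 without WT 2. There were 0.576 and 0.509 reads of Il21r per read of Il4ra in the cKO libraries and 0.779 and 0.946 in the WT libraries, so that the ratio of these neighbouring genes was lower in both cKO libraries. This difference was not tested either.

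The promoters of the 2 receptor genes that fell, and that of Il7r, are shown to compare their sequence, since promoter sequence was not used in choosing the genes. They are RefSeq sequences of GRCm38.p6, from 250 bases before to 50 after a transcript start, 5′ to 3′ on the gene's strand. That start is the gene's start as given above for Il6ra, but lies 177 bases downstream of the gene's outermost RefSeq start for Il21r (at 125603429) and 65 bases downstream of it for Il7r (at 9529876). Capitals mark matches to TTCNNNGAA, a spacing that STAT factors bind, to TTCNNNNGAA, which STAT6 favours, or to GTAAACA, a forkhead (FOXO) core, each searched on both strands. The first window is chr7:125603179-125603478 on the plus strand, the next chr3:89913147-89913446 on the minus strand and the last chr15:9529827-9530126 on the minus strand.
Il21r: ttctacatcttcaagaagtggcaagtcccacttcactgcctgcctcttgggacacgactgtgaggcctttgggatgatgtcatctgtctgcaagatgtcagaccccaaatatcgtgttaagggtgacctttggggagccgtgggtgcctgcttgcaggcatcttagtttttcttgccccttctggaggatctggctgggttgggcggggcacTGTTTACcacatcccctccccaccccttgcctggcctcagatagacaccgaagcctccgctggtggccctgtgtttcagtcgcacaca
Il6ra: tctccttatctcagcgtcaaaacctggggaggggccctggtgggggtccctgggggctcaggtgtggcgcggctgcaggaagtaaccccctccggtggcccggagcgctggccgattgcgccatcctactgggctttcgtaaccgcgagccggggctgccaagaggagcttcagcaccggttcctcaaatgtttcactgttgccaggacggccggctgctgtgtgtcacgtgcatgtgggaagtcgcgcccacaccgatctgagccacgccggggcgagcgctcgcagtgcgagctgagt
Il7r: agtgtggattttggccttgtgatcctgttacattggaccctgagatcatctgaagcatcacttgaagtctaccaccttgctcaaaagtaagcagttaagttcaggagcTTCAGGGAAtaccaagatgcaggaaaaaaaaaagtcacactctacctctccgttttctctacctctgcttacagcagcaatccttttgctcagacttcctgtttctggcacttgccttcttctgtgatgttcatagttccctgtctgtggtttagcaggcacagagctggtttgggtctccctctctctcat
The Il21r window holds 1 forkhead match on the opposite strand, whose first base lies 38 bases before the transcript start of that window. The Il7r window holds 1 STAT-type match, TTCAGGGAA, which begins 142 bases before the transcript start of its window. No match to the 3 motifs was found in the Il6ra window, which therefore stands in lower case, nor in those of Il4ra, Il6st, Jak2, Stat3 and Stat6. Among 32851 mouse promoters of the same length, 8.30% hold TTCNNNGAA, 6.95% TTCNNNNGAA and 3.65% GTAAACA, none of which overlap in the windows shown. The 8 windows found also differ in CpG content: Il7r has 1 CpG dinucleotide, Il21r 7, Stat6 8 and Stat3 15, while Il4ra and Il6ra have 25 each, Il6st 33 and Jak2 44. The median over 21263 promoters of protein-coding genes is 13. Of the 4 genes that fell, 3 lie above that median and Il21r below it.

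Il7r encodes the alpha chain for interleukin 7, which also serves the receptor for TSLP. It lies on chromosome 15 (gene number 16197, 9506159 to 9529941), 89.3 Mb from Kmt2d. Il7r measured 214 and 230 CPM in cKO and 245 and 244 CPM in WT. Both cKO libraries were slightly lower, but the test was not passed (log2 fold change -0.14, 95% interval -0.27 to -0.01, edgeR unadjusted p = 0.0428, adjusted p = 0.104).

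Il10ra, whose product binds interleukin 10 (gene number 16154, chromosome 9, 45253837 to 45269149), had the lowest count of the 10. It measured 92.2 and 90.3 CPM in cKO and 94.1 and 110 CPM in WT. The groups did not overlap, yet WT 1 was only just above the cKO libraries, and the test was not passed (log2 fold change -0.16, 95% interval -0.37 to 0.04, edgeR adjusted p = 0.198). For Il27ra, the chain specific to interleukin 27 (gene number 50931, chromosome 8, 84030286 to 84042600), all 4 libraries were close together. It measured 252 and 247 CPM in cKO and 258 and 252 CPM in WT, a log2 fold change of -0.03 with a 95% interval of -0.15 to 0.08 (edgeR adjusted p = 0.673). That is the narrowest interval of the 10 genes, so a change as large as that of Il6ra or Il21r lies outside it.

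Downstream of these receptors, Stat3 was modestly lower. The gene (gene number 20848, chromosome 11, 100886806 to 100939594) measured 284 and 271 CPM in the cKO libraries and 345 and 318 CPM in the WT libraries. Its means were 277 ± 8.55 CPM in cKO and 331 ± 19.1 CPM in WT, a log2 fold change of -0.26 (SE 0.06, edgeR adjusted p = 0.0243). This call rests on 3 of the libraries: the edgeR adjusted p was 0.0702 without cKO 1, 0.127 without cKO 2 and 0.112 without WT 1, and 0.0307 without WT 2. In GENCODE release M21 the 3′ end of Stat3 overlaps that of Stat5a on the opposite strand by 72 bases, and reads there cannot be told apart without strand.

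Jak2 encodes a kinase that binds gp130 and other receptors (gene number 16452, chromosome 19, 29251803 to 29313095). It measured 275 and 272 CPM in cKO and 319 and 309 CPM in WT, with little spread within either group. Its log2 fold change was -0.20 (SE 0.05, edgeR adjusted p = 0.0265). The call ended whichever library was left out, with edgeR adjusted p of 0.124 without cKO 1, 0.148 without cKO 2, 0.125 without WT 1 and 0.0658 without WT 2. Stat6, the main STAT of interleukin 4 and interleukin 13 (gene number 20852, chromosome 10, 127642955 to 127660987), measured 295 and 279 CPM in cKO and 300 and 308 CPM in WT. Its groups were adjacent, and the test was not passed (log2 fold change -0.08, 95% interval -0.21 to 0.05, edgeR adjusted p = 0.305).

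The sizes can be set beside general T cell transcripts, which were themselves lower in the cKO libraries. Of 12 such genes, among them Cd3e, Cd4 and Lck, 9 fell (5 without cKO 1), 0 rose and 3 did not pass, with a median log2 fold change of -0.32 and a range of -0.45 to 0.01. Il6ra and Il21r had more negative values than all 12. Stat3 and Jak2 lay inside that range, each with 9 of the 12 markers more negative than itself. Of 5 Treg cell markers, Foxp3 (-0.59) and Tnfrsf18 (-0.58) fell, Il2ra rose (0.38) and 2 did not pass. Il21r, at -0.57, was slightly less negative than Foxp3 and Tnfrsf18, while Il6ra, at -0.68, was more negative than both. The part of these T cell and Treg cell marker differences in the falls of the 4 genes was not tested.

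**Figure D2:**
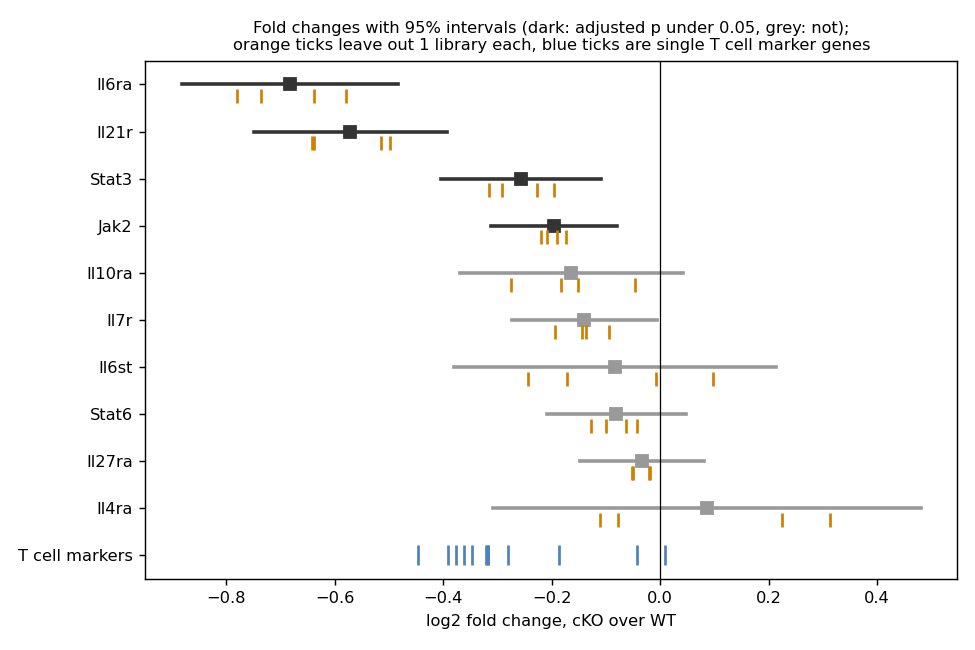
Log2 fold change (cKO over WT) of the 10 genes with 95% intervals, ordered from Il6ra (-0.68) at the top to Il4ra (0.09), with dark symbols for an adjusted p under 0.05 and grey for the rest. Orange ticks are the values with 1 library left out and blue ticks in the bottom row are the 12 T cell markers, which run from -0.45 to 0.01. The ticks of Il4ra and Il6st fall on both sides of 0.

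Annotated neighbours on the other strand exist for further members. Il27ra overlaps the protein-coding gene Palm3, Stat6 overlaps Nab2, and Il4ra and Il6ra each overlap an antisense transcript, Gm44876 and Gm42809. Il10ra overlaps the processed pseudogene Gm20612, and the microRNA gene Mir7086 on its own strand. Whether counting used strand is not stated, and reads in these overlaps could belong to either gene.

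Levels of different genes can be compared only per length, here as CPM per kilobase of annotated exon. On this scale Il21r was the highest of the 10 in WT libraries, at 90.2 to 99.6, but lay at 61.1 to 66.7 in cKO libraries, which is within the range of Il4ra there. Il27ra (70.6 to 72.0 in cKO, 72.2 to 73.7 in WT) and Stat6 (63.4 to 67.1 in cKO, 68.1 to 69.9 in WT) came next in WT, followed by Jak2 (54.2 to 54.8 in cKO, 61.4 to 63.4 in WT). Il4ra spanned 58.7 to 72.5 in cKO and 52.8 to 70.8 in WT, so its place beside Il27ra, Stat6 and Il21r in cKO, and beside Stat6 and Jak2 in WT, cannot be ordered. In cKO the ranges of Il21r and Stat6 overlapped as well. Il7r stood at 45.9 to 49.3 in cKO and 52.4 to 52.5 in WT.

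A lower tier held Stat3 (28.5 to 29.8 in cKO, 33.4 to 36.2 in WT), Il10ra (25.8 to 26.4 in cKO, 26.9 to 31.6 in WT), Il6st (22.5 to 25.2 in cKO, 22.3 to 28.2 in WT) and Il6ra (14.0 to 14.99 in cKO, 21.7 to 24.9 in WT). In WT the ranges of Il10ra and Il6st overlapped, as did those of Il6st and Il6ra, so that these neighbours do not differ beyond their spread. Il6ra stood below Il6st within every library. It was at 24.9 against 28.2 in WT 1 and 21.7 against 22.3 in WT 2, while in cKO the ranges were apart. The exon length joins all annotated isoforms of a gene, so a gene with long rare isoforms is placed too low.

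**Figure D3:**
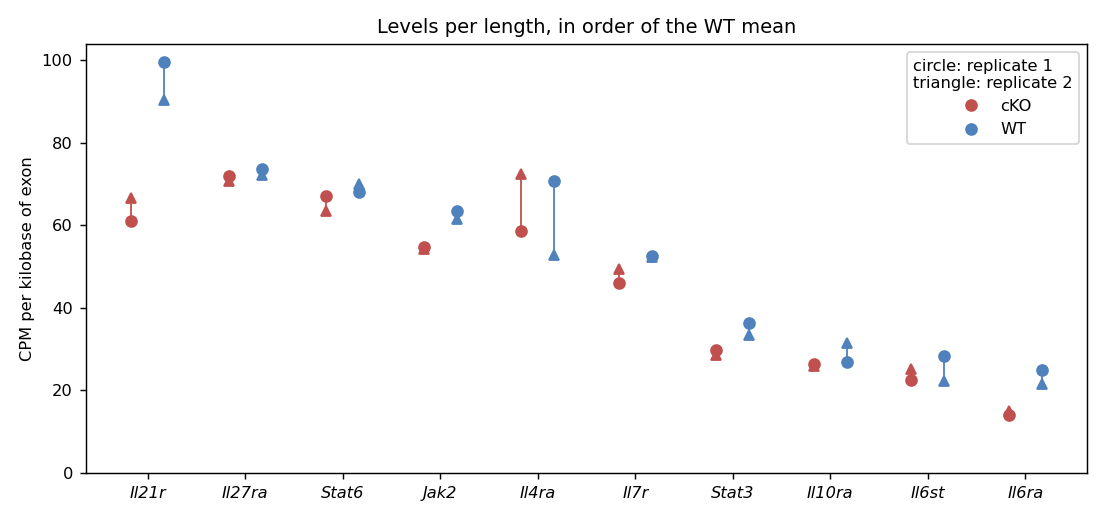
CPM per kilobase of exon for the 10 genes in each library, cKO left of WT, in the order of the WT mean. Il21r is highest in WT (90.2 to 99.6) and lies among Il4ra, Stat6 and Il27ra in cKO, and Il6ra is the lowest gene in cKO (14.0 to 14.99).

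The other parts of these pathways were described by lists chosen with earlier results of these data known, beside the background of 16.5% of genes higher and 15.1% lower. Most of the cytokines themselves were scarce. Of 13 ligand genes, 5 (Il7, Tslp, Il13, Il11 and Il12a) were too low to test, and Il7 had 8 and 18 reads in the cKO libraries and 2 and 1 in the WT libraries. Il6 measured 0.413 and 1.16 CPM in cKO and 1.12 and 0.492 CPM in WT, and Il4 0.516 and 0.521 CPM in cKO and 0.547 and 1.08 CPM in WT. Il21 varied widely within groups, with 7.12 and 3.79 CPM in cKO and 2.82 and 8.66 CPM in WT, and did not pass. Lif, a ligand that acts through gp130, fell to 11.2 ± 0.0900 CPM in cKO, against 17.02 ± 0.585 CPM in WT (log2 fold change -0.60, SE 0.08, edgeR adjusted p = 0.00595). The other 2 of the 3 ligand genes that fell were Il10 (-1.51) and Ebi3 (-1.74), which encodes a subunit of interleukin 27 and interleukin 35, and 0 of the 8 tested rose.

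Partner chains moved both ways, with 3 of 6 tested lower, 2 higher and 1 not passing. Il2rg, the common gamma chain that Il7r, Il4ra and Il21r use, measured 507 and 531 CPM in cKO and 662 and 641 CPM in WT (log2 fold change -0.33, SE 0.05, edgeR adjusted p = 0.00800). Il10rb, the partner of Il10ra, fell by 0.38 on the log2 scale (SE 0.05). Crlf2, the TSLP receptor chain that pairs with Il7r, fell by 0.32, a call lost without cKO 1 (edgeR adjusted p = 0.0712) or WT 1 (0.0718).

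The 2 chains that rose are scarce. Il13ra1, which pairs with Il4ra to bind interleukin 13, measured 12.2 and 9.56 CPM in cKO and 6.02 and 6.96 CPM in WT, a log2 fold change of 0.74 that lost its call without cKO 1 (edgeR adjusted p = 0.0797) or WT 1 (0.0936). Lifr, which pairs with gp130, measured 3.20 and 4.03 CPM in cKO and 1.09 and 1.80 CPM in WT, a log2 fold change of 1.33 that lost its call without cKO 2 (edgeR adjusted p = 0.0682) or WT 1 (0.0690). Both are also expressed outside T cells, and summed markers of neutrophils, basophils, dendritic cells and B cells were higher in the same libraries. The part of those cells in these 2 rises was not tested. Il11ra1 had a log2 fold change of 0.33 and did not pass, and Osmr, with 0 to 3 reads in a library, was not tested.

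Of the other 3 Janus kinases, Jak3, which serves the common gamma chain, had a log2 fold change of -0.46 (SE 0.05, edgeR adjusted p = 0.00512), and Jak1 fell by 0.26. Jak1 loses its call without cKO 1 (edgeR adjusted p = 0.0700), cKO 2 (0.0662) or WT 1 (0.0627). Tyk2 had -0.15 and did not pass. Among further STAT genes, Stat5a fell by 0.49 (SE 0.07, edgeR adjusted p = 0.00682), Stat5b by 0.31 and Stat4 by 0.28, while Stat2 (0.19) did not pass. The Stat5b call ended without cKO 1 (edgeR adjusted p = 0.0558), cKO 2 (0.0581) or WT 1 (0.0578). That of Stat4 ended without cKO 1 (edgeR adjusted p = 0.0571), cKO 2 (0.0952) or WT 2 (0.0860).

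Of 11 genes that restrain JAK and STAT signalling, 8 fell, 0 rose and 3 (Pias3, Ptprc and Ptpn6, with log2 fold changes of -0.21, -0.06 and -0.10) did not pass, and the list median was -0.31. Socs3, the inhibitor that STAT3 induces and that binds gp130, measured 90.9 and 135 CPM in the cKO libraries and 308 and 273 CPM in the WT libraries. The groups were far apart, with cKO 1 the lowest (log2 fold change -1.36, SE 0.18, edgeR adjusted p = 0.00574). Cish, an inhibitor induced by STAT5, fell by 0.66 (SE 0.09, edgeR adjusted p = 0.00549), and the tyrosine phosphatase genes Ptpn1 and Ptpn2 fell by 0.36 and 0.35. The Ptpn1 call ended without cKO 1 (edgeR adjusted p = 0.0530) and that of Ptpn2 without cKO 1 (0.0562) or WT 1 (0.0538). The count of 8 was 2 without cKO 1, 7 without cKO 2, 3 without WT 1 and 6 without WT 2.

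Of 22 tested genes known as STAT3 targets in T cells, 10 fell, 3 rose and 9 did not pass, with a median of -0.40. Socs3 and Il10 are among the 10. Pim1, a survival kinase gene, measured 459 and 530 CPM in cKO and 942 and 813 CPM in WT (log2 fold change -0.83, SE 0.10, edgeR adjusted p = 0.00512). Rora, a nuclear receptor gene of the type 17 programme, measured 69.0 and 68.7 CPM in cKO and 148 and 118 CPM in WT (log2 fold change -0.95, SE 0.11, edgeR adjusted p = 0.00489). For both genes the 4 libraries split cleanly by genotype.

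Prdm1 and Myc are among the targets that rose. Prdm1, the gene of the repressor Blimp-1, measured 45.9 and 44.6 CPM in cKO and 22.8 and 27.4 CPM in WT (log2 fold change 0.85, SE 0.09, edgeR adjusted p = 0.00471). Myc, a driver of growth, measured 179 and 171 CPM in cKO and 102 and 117 CPM in WT (log2 fold change 0.68, SE 0.08, edgeR adjusted p = 0.00509). Several of these targets answer to other signals too, among them the T cell receptor, so the list measures more than STAT3.

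Of 6 tested STAT6 target genes, 5 fell, 0 rose and Il4 did not pass, with a median of -0.53. Nfil3, a transcription factor gene, measured 46.8 and 63.5 CPM in cKO and 128 and 113 CPM in WT (log2 fold change -1.13, SE 0.15, edgeR adjusted p = 0.00561), while Stat6 and Il4ra themselves did not pass. The chemokine receptor genes Ccr8 and Ccr4 fell by 1.34 and 0.42 on the log2 scale. Socs1, a further STAT-induced inhibitor, fell by 0.31, a call lost without cKO 1 (edgeR adjusted p = 0.0821) or WT 1 (0.0828). The count of 5 was 3 without cKO 1, and 4 with any other library left out. Il24 and Il4i1 were too low to test. The part of STAT6 in the falls on this list was not tested.

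Regulators of the Il7r gene gave 2 of 7 lower, 1 higher and 4 not passing, with a median of -0.07. Foxo1, an activator of Il7r, measured 516 and 536 CPM in cKO and 565 and 469 CPM in WT and did not pass. Foxp1, which competes with it at Il7r, measured 367 and 377 CPM in cKO and 315 and 296 CPM in WT, a log2 fold change of 0.28. The Foxp1 call ended without cKO 1 (edgeR adjusted p = 0.0526), cKO 2 (0.0695) or WT 2 (0.0581). Runx1 fell by 0.35 (SE 0.06, edgeR adjusted p = 0.00990). Nr3c1, the glucocorticoid receptor gene, fell by 0.29, a call lost without cKO 1 (edgeR adjusted p = 0.0746), cKO 2 (0.0505) or WT 1 (0.0660).

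**Figure D4:**
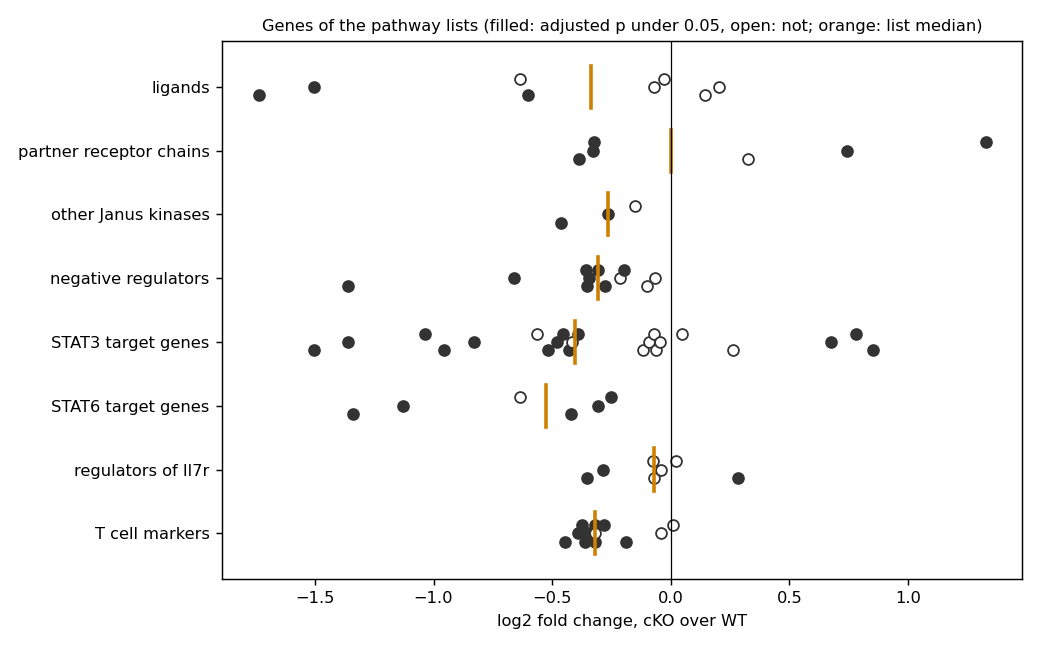
Log2 fold change (cKO over WT) of every tested gene of 7 pathway lists and of the T cell markers. Filled points passed an adjusted p of 0.05, open points did not, and orange lines are list medians, which run from -0.53 for STAT6 targets to 0.00 for partner chains, beside -0.32 for T cell markers.

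A wider view comes from the pathway names that the deposited table gives for each gene. Of 106 tested genes that it places in the JAK-STAT signalling pathway, 22 were higher, 40 lower and 44 did not pass, with a median log2 fold change of -0.11. The lower count was 18 without cKO 1, 25 without cKO 2, 19 without WT 1 and 30 without WT 2, and the higher count ran from 13 without WT 1 to 18 without each other library. Of 163 tested genes under cytokine and receptor interaction, 39 were higher, 54 lower and 70 did not pass (median -0.06). Without WT 1 these counts were 23 higher and 40 lower. Members and genes of the lists above were not taken out of either pathway, so these counts can include them again.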

How the data were processed

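The study deposited 1 table of raw read counts per gene for 4 libraries. Reads were mapped to mm10, per the submitters' processing notes, while neither the aligner and counter nor the annotation and strand setting is given in the sources used here. The members and lists were chosen with earlier results of these data known. Counts were scaled by TMM and tested with edgeR 4.0.16 in R 4.3.3 (glmQLFit, glmQLFTest, group as the only term, 2-sided) after filterByExpr (minimum count 10, minimum total 15), with p-values adjusted over all genes by Benjamini-Hochberg and called under 0.05. SE is the size of the log2 fold change over the root of F. Genes named besides the members are, for each pathway list, up to 4 called genes with the smallest p and every gene on a side of 3 or fewer, and any other name was picked with its value in view. Some genes that this rule names are not reported here. Coordinates and promoters are from RefSeq GRCm38.p6, the assembly of mm10, matched by gene number. Promoters were found for 8 of the 10 members. Exon lengths and overlaps are from GENCODE release M21. The test was also run on simulated data, with fewer changed genes than were called here and with fold changes larger than those of Stat3 and Jak2. Those runs therefore do not cover the calls of Stat3 and Jak2. In both groups, replicates differed by more than sampling noise (chi-square per degree of freedom 9.48 in cKO and 10.2 in WT). Alternatives were upper-quartile or RLE scaling, limma-voom (limma 3.58.1), DESeq2 1.42.0, a minimum of 5 CPM in 2 libraries or no filter, equal depth by thinning, a replicate block, 1 library left out at a time, and a threshold of 0.10.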

Additional observations from a re-analysis of the deposited data

How the results depend on the processing

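With all 4 libraries, every change of scaling, filter or tool, thinning, and a threshold of 0.10 gave 4 members lower and 0 higher. Leaving out 1 library gave 2 to 3 members lower, and 0 higher in each case, and Il6ra and Il21r passed every time. The counts of all genes called fell to between 1869 and 2747, from fewer samples, and DESeq2 called 2876 against 4380. With the replicate number as a block, 2 members were lower and 2292 genes passed, and Stat3 and Jak2 lost their calls (edgeR adjusted p = 0.0601 and 0.112). The labels do not say that equal numbers share a litter or batch, and deviations of same-numbered libraries correlated at -0.44 across genes. Chosen after seeing the data, a block of crossed numbers gave 6 members lower, 0 higher and 6713 genes called. Higher genes made up 52.3% of all calls with TMM, 57.6% with upper-quartile scaling and 45.2% with DESeq2. No member that passed changed sign in any alternative. With 2 libraries a group, the 95% interval of Il4ra ran from -0.31 to 0.48. Thinning changed the totals little, so what a much lower or higher depth would change was not tested.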
